A study of Mus musculus with 7 samples.

Results

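The 10 genes described here encode enzymes of lipid and wax synthesis that are known from the sebaceous gland: Awat2, Far2, Elovl3, Elovl5, Scd1, Scd2, Dgat2, Fads2, Fasn and Sdr16c6. They were chosen by name with earlier results of these data known. Each of the 10 symbols matched 1 of the 13167 transcript rows of the count table. The samples are mouse epidermis, the outer layer of the skin, and the libraries are ribosome profiling libraries, which sequence mRNA fragments protected by ribosomes (footprints). The groups are 2 libraries from mice with a transgenic knockout of Pelo (KO) and 2 from wild-type mice (WT). Pelo encodes Pelota, a factor known to release ribosomes that have stalled on mRNA. The labels describe the samples as primary cells of the epidermis and name no allele, no Cre driver and no age, strain or treatment, and the sources used here do not say which cells lost Pelo. RNA-seq libraries, 2 of KO and 1 of WT, are labelled too but were not analysed here, so more mRNA and more ribosomes per mRNA cannot be told apart. In these bulk samples fewer cells of a type and less RNA per cell cannot be told apart either.

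Sebocytes fill with lipid and then burst, and the released mixture is sebum, which is rich in triglycerides and wax esters. Fasn builds the saturated fatty acid, the Scd enzymes place a double bond in it, and the Elovl enzymes lengthen it. Far2 reduces an acyl-CoA to a fatty alcohol, which Awat2 joins to another acyl-CoA to make a wax ester, while Dgat2 completes a triglyceride. Fasn, Dgat2, Scd2, Elovl5 and Fads2 are also active in many other cell types, adipocytes and keratinocytes among them.

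The libraries held 4221675 to 5282276 coding footprints, and the median transcript listed had 90 to 112. Pelo, with 24 and 21 in KO against 101 and 61 in WT, fell by 1.65 on the log2 scale (SE 0.245, adjusted p = 0.000807; edgeR quasi-likelihood test with Benjamini-Hochberg adjustment, as for every adjusted p unless another tool is named). Keratinocyte markers were present in all 4 libraries: suprabasal genes took 6.93% to 7.65% of coding footprints in KO and 2.83% to 3.41% in WT, and basal genes 2.25% to 2.46% and 1.63% to 1.74%. Dermal fibroblast genes took 4.41% to 5.01% in KO and 9.10% to 13.4% in WT, and adipocyte genes 0.0892% to 0.113% and 0.198% to 0.269%. Both shares were lower in KO, the direction of most of the lipid genes, and their part in the results was not tested. Whether the replicates are different animals is not in the labels, and p-values then describe the spread between these libraries, which may be technical.

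As a sum, the 10 genes held a lower share of coding footprints in both knockout libraries. Together they took 0.237% (95% exact binomial interval 0.232% to 0.241%) and 0.294% (0.289% to 0.299%) of coding footprints in KO, against 0.631% (0.624% to 0.638%) and 0.564% (0.557% to 0.571%) in WT. These intervals cover counting error only. Of the 10 genes, all of which passed the count filter, 5 fell, none rose and 5 did not pass the test. Over all 10953 transcripts tested, 19.1% were called lower and 19.9% higher, together 39%. With library totals in place of TMM factors the split over all transcripts was 1523 higher and 2986 lower, against 2184 and 2093, and the median log2 change moved from −0.02 to −0.19. For 8 of the 10, all but Dgat2 and Fads2, both KO libraries lay below both WT libraries, which held for 36.5% of all transcripts; separation in either direction held for 71.9%. The median log2 change of the 10 was −0.81. Because the 10 genes were chosen with earlier results of these data known, these counts are a description and were not tested against the shares.

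Per kilobase of coding region, Scd1 had the most footprints of the 10 in either genotype. In WT it held 2097 ± 24.8 CPM per kb (CPM, counts normalised for library size, divided by the kilobases of coding region; mean ± SD, n = 2), followed by Scd2 with 716 ± 7.58, Elovl5 with 360 ± 18.7, Sdr16c6 with 337 ± 14.3 and Far2 with 275 ± 5.77. Below them came Dgat2 with 211 ± 55.9, Fasn with 196 ± 23.1, Elovl3 with 88.8 ± 5.65, Awat2 with 22.0 ± 3.91 and Fads2 with 5.10 ± 2.65. Only 2 pairs of neighbours in this WT order overlapped between libraries, Elovl5 with Sdr16c6 and Dgat2 with Fasn. In KO the order began with Scd1 at 549 ± 187 CPM per kb, Scd2 at 336 ± 21.5 and Sdr16c6 at 307 ± 12.6. Dgat2 (179 ± 5.57) and Fasn (166 ± 7.29) came next, ahead of Elovl5 (71.4 ± 18.5), Elovl3 (61.9 ± 31.5) and Far2 (56.2 ± 42.0), whose KO libraries overlapped. Fads2 (8.56 ± 3.92) and Awat2 (4.58 ± 2.87) came last and overlapped too. Elovl5 thus moved from place 3 in WT to place 6 in KO, and Far2 from place 5 to place 8.

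**Figure D1:**
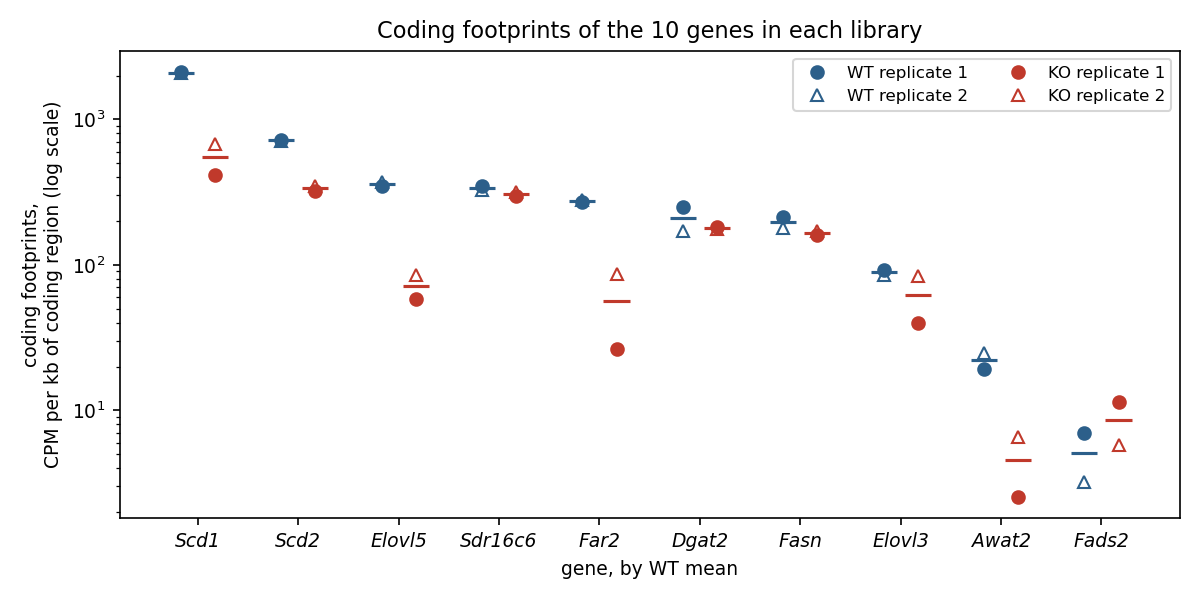
Coding footprints per kilobase (CPM per kb, log axis) of each gene in each library, genes ordered by their WT mean; blue is WT, red is KO, filled circles are replicate 1, open triangles replicate 2, and lines are means of 2 libraries. The WT libraries lie close together for Scd1 (2097 ± 24.8) and Far2 (275 ± 5.77), while the KO libraries of Far2 spread widely (56.2 ± 42.0).

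Both wax ester enzymes fell, Far2 by 4.89-fold and Awat2 by 4.79-fold. Far2 (transcript uc009etc.1) had 176 coding footprints in KO replicate 1, 540 in KO replicate 2, and 2248 and 1765 in the WT libraries. Both KO libraries were far below WT, and they also differed from each other. The fall was 2.29 on the log2 scale (SE 0.393, adjusted p = 0.00182). Awat2 (uc009tvx.1) had 11 and 27 in KO and 104 and 102 in WT, again with no overlap and with KO replicate 1 the lower library. It fell by 2.26 (SE 0.340, adjusted p = 0.000859). The log2 changes were −1.67 for Far2 and −1.72 for Awat2 without KO replicate 1, and −3.37 and −3.08 without KO replicate 2, and these 4 values passed the test.

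The desaturases Scd1 and Scd2 fell by different amounts. Scd1 (uc008hpr.2), known as the main desaturase of the sebaceous gland and of fat, had 1921 and 2977 coding footprints in the KO libraries and 12221 and 9160 in the WT libraries. It fell by 1.93 on the log2 scale (SE 0.207, adjusted p = 0.000112). Scd2 (uc008hpp.2), an isoform known from brain and many other tissues, had 1490 and 1548 in KO and 4206 and 3158 in WT and fell by 1.09 (SE 0.114, adjusted p = 9.7e-05). The WT libraries of each gene agreed within a few percent after scaling, at 2132 and 2096 CPM for Scd1 and 734 and 723 CPM for Scd2. The difference between the falls of Scd1 and Scd2 was not tested. Scd genes are close copies of each other, and the sources used here do not say how reads that match several of them were counted, so their separate values are uncertain. Fads2 (uc008gpb.1), which desaturates polyunsaturated fatty acids, had 66 and 32 footprints in KO and 51 and 18 in WT. Fads2 thus lay below the median listed transcript of each library. Its genotypes overlapped and its log2 change of 0.70 (SE 0.395, adjusted p = 0.189) did not pass. The change was 0.14 without KO replicate 1 and 0.30 without WT replicate 2, and it passed at 1.10 without KO replicate 2 and at 1.40 without WT replicate 1.

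Of the elongases, Elovl5 fell and Elovl3 did not pass the test. Elovl5 (uc009qtn.2), which lengthens polyunsaturated fatty acids, had 224 and 308 coding footprints in the KO libraries and 1670 and 1370 in the WT libraries. It fell by 2.33 on the log2 scale (SE 0.170, adjusted p = 1.6e-05), the deepest fall of the 10 and 5.04-fold. Elovl3 (uc008hsk.1), which makes very long saturated and monounsaturated chains for sebum and brown fat, had 137 and 276 in KO and 402 and 280 in WT. After scaling, KO replicate 2 stood at 63.6 CPM, just under the 64.1 CPM of WT replicate 2, while KO replicate 1 stood at 29.97 CPM. The log2 change of −0.53 (SE 0.271, adjusted p = 0.154) therefore rested on KO replicate 1: it was −0.075 without that library and −1.16 without KO replicate 2, where it passed (adjusted p = 1.84e-05).

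Fasn and Dgat2, which stand at the start and the end of triglyceride synthesis, and Sdr16c6 did not pass the test. Fasn (uc007mut.1) had 5485 and 5539 coding footprints in the KO libraries and 9064 and 5846 in the WT libraries, which after scaling were 1200 and 1277 CPM against 1581 and 1338 CPM. The log2 change was −0.24 (SE 0.130, adjusted p = 0.180); with library totals it was −0.41 and passed (adjusted p = 0.0380). Dgat2 (uc009ile.1) had 926 and 841 in KO and 1591 and 830 in WT, and its genotypes overlapped. Its log2 change was −0.24 (SE 0.167, adjusted p = 0.285), turned to 0.0555 without WT replicate 1 and passed at −0.48 without WT replicate 2. Sdr16c6 (uc008rwy.1), a member of the short-chain dehydrogenase/reductase family, had 1214 and 1221 in KO and 1775 and 1274 in WT, with a log2 change of −0.14 (SE 0.111, adjusted p = 0.359).

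**Figure D2:**
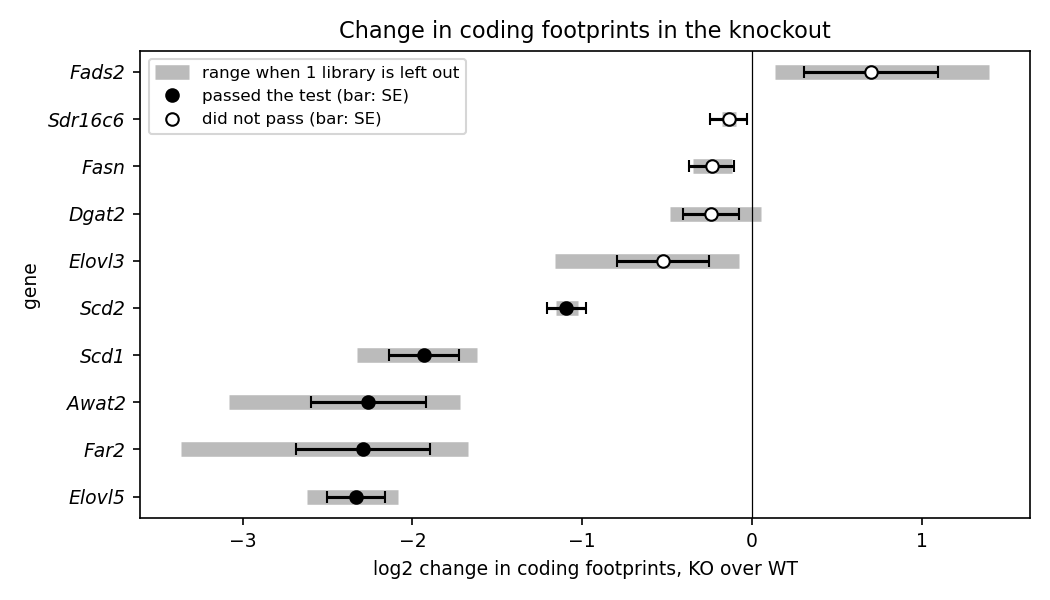
Log2 change of coding footprints in KO over WT for each gene, with its SE (black bars) and the range of values when 1 of the 4 libraries is left out (grey); filled points passed the test. Elovl5 (−2.33), Far2 (−2.29), Awat2 (−2.26), Scd1 (−1.93) and Scd2 (−1.09) passed, and the grey range is wide for Far2, Awat2, Elovl3 and Fads2.

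Promoter sequence was at hand for 6 of the 10 genes, as RefSeq windows on GRCm38.p6 that run from 250 bases before to 50 after a transcript's start; the counts themselves rest on mm9 annotations. These windows were searched on both strands for motifs of factors known from lipid genes. The CCAAT box (CCAAT) occurred in windows of 4 of the 6 genes, Elovl5, Fasn, Awat2 and Sdr16c6, and in 37.4% of all 32851 windows. The E-box (CACGTG) occurred in a window of Elovl5 and in 7.15% of all. Genes were counted with a match in any of their windows and the background by single windows, so these are unlike measures. The sterol regulatory element (TCACNCCAC; 1.24% of all), the PPAR response element (0.0396% of all) and the TATA box (TATAAA; 13.6% of all) matched in none of the 6. Matches of Elovl5 and Awat2, which fell, and of Fasn, which did not pass, are shown in the gene's own orientation, with the motif or its reverse complement in capitals.
Elovl5, −71 to −67, chr9:77917282-77917311, plus strand: tatcgccccaggATTGGttccaaggccgca
Elovl5, −17 to −13, chr9:77917336-77917365, plus strand: ctccgggctcggATTGGctggccgcgccat
Elovl5, −161 to −156, chr9:77917192-77917221, plus strand: actgccccgagaCACGTGaaccacaggaga
Fasn, −90 to −86, chr11:120824620-120824649, minus strand: ccgcgcgccgccATTGGgccaccgagaacg
Awat2, −85 to −81, chrX:100442785-100442814, minus strand: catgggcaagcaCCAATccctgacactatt
Positions count from 0 at the first transcribed base. Another 2 matches of the box in Fasn, which overlap each other, 1 in Sdr16c6 and 1 in a window of Awat2 at another start (chrX:100412691-100412720) are not printed. Which Awat2 start belongs to the counted transcript was not determined. The box thus occurred in 2 genes that fell, Elovl5 and Awat2, and in 2 that did not pass, Fasn and Sdr16c6. A match is a description of letters and not a bound site.

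Footprints in the 5′ UTR, the stretch before the coding region, did not follow the coding footprints for Scd2 and Sdr16c6. Scd2, whose 5′ UTR measures 706 nt, had 216 and 171 footprints there in KO and 77 and 46 in WT, so the KO counts were higher while its coding counts were lower. That is 12.8 ± 2.44 5′ UTR footprints per 100 coding footprints in KO and 1.64 ± 0.265 in WT (mean ± SD, n = 2). Sdr16c6, with a 5′ UTR of 111 nt, had 54 and 61 in KO and 21 and 6 in WT, or 4.72 ± 0.387 per 100 in KO and 0.827 ± 0.504 in WT. Per nucleotide, the 5′ UTR of Sdr16c6 was covered at 35.7% and 40.1% of its coding density in KO and at 9.50% and 3.78% in WT, and that of Scd2 at 20.9% and 15.9% and at 2.64% and 2.10%.

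These values stood on a background that also moved: over all transcripts, 1.45 and 1.69 5′ UTR footprints per 100 coding footprints were counted in KO and 1.09 and 0.996 in WT. The ratio was therefore tested after scaling each region separately, which sets the typical change to about 0. Of 1618 transcripts with enough counts in both regions, 10 were higher (0.618%) and 17 lower (1.05%) in KO. Scd2 had the smallest p of the 1618, with a rise of the ratio of 2.23 on the log2 scale (SE 0.230, adjusted p = 0.00018), or 4.68-fold beyond the typical change. How reads that match several Scd copies were counted is not known, so the size of this rise is uncertain. With the replicate number as a block, no transcript passed (adjusted p = 0.115 for Scd2 and 0.218 for Sdr16c6). In the fit without a block, Sdr16c6 rose by 1.72 (SE 0.343, adjusted p = 0.0246). Its value depended on WT replicate 2, whose count was 6: the rise was 1.29 without that library and 2.53 without WT replicate 1, and it passed in both.

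Dgat2 and Scd1 leaned the same way without passing. Dgat2, with a 5′ UTR of 195 nt, had 53 and 75 5′ UTR footprints in KO and 37 and 22 in WT, or 7.32 ± 2.26 and 2.49 ± 0.230 per 100 coding footprints. Its change beyond the typical one was 0.85 (SE 0.272, adjusted p = 0.143). Scd1, with 294 nt, had 94 and 159 in KO and 299 and 173 in WT, so its 5′ UTR counts were lower in both KO libraries than in both WT libraries, as its coding counts were. Per 100 coding footprints it held 5.12 ± 0.317 in KO and 2.17 ± 0.395 in WT, and the change was 0.52 (SE 0.242, adjusted p = 0.270). At an unadjusted p under 0.05 all 4 genes were higher (Dgat2 0.0075, Scd1 0.0481), against 9.27% of the transcripts tested. For all 4 genes both KO libraries lay above both WT libraries in the raw ratio, which held for 63.8% of the transcripts tested. When both regions were scaled by the coding factors, so that the typical rise stayed in, the median transcript moved by 0.76 and 480 transcripts were higher and 14 lower. All 4 genes passed in that fit, with Dgat2 at 1.55 and Scd1 at 1.25.

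**Figure D3:**
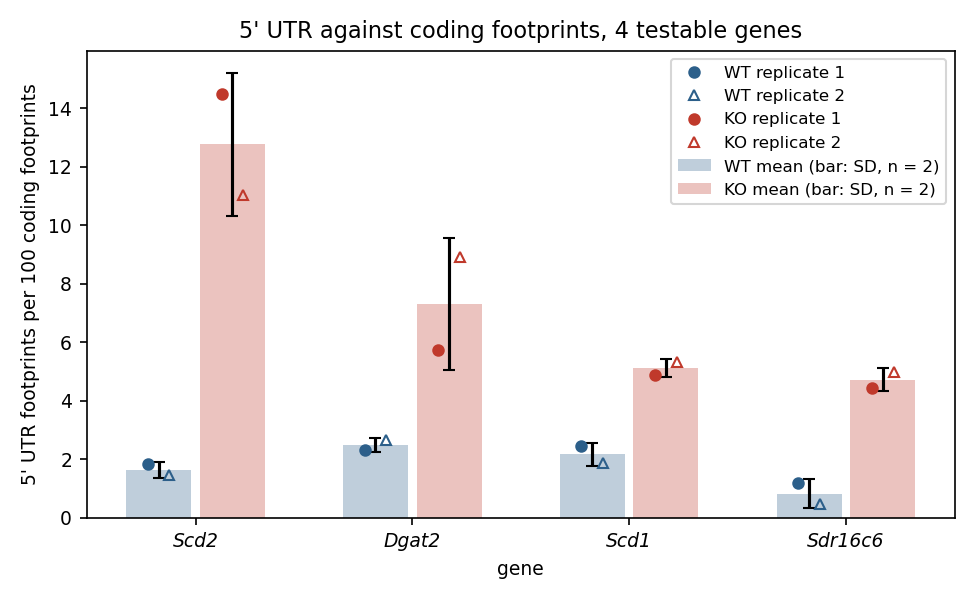
5′ UTR footprints per 100 coding footprints for the 4 genes with enough 5′ UTR counts to test; bars are means of 2 libraries, error bars SD, points single libraries. Scd2 stands at 12.8 in KO against 1.64 in WT, and for each of the 4 genes both KO libraries lie above both WT libraries.

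The other 6 genes had too few 5′ UTR footprints to test. Fasn, in a 5′ UTR of 521 nt, had 5 and 3 in KO and 2 and 1 in WT beside 5485 to 9064 coding footprints. Elovl5 had 1 and 2 in KO and 2 and 3 in WT, Elovl3 2 and 3 in KO and 0 and 0 in WT, and Far2 2 and 0 in KO and 1 and 1 in WT. Fads2 had 1 in KO replicate 1 and 0 in the rest. Awat2, whose 5′ UTR measures 21 nt, had 0 in every library, which allows up to 3 counts in each.

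Footprints in the 3′ UTR were few for all 10 genes. Scd1, with a 3′ UTR of 3464 nt, had 6 and 10 in KO and 41 and 19 in WT, or 0.312 and 0.336 per 100 coding footprints in the KO libraries and 0.335 and 0.207 in the WT libraries, so the genotypes overlapped once set against the coding counts. No other gene of the 10 exceeded 8 footprints in any library, and Far2 and Fads2 had 0 in all 4. A further 71 nt of each transcript belong to none of the 3 regions. In Sdr16c6 they held 85 and 81 footprints in KO and 45 and 36 in WT, higher in KO as in its 5′ UTR. In Scd2 they held 16 and 21 in KO and 7 and 15 in WT. In Elovl5 they held 8 and 15 in KO and 38 and 37 in WT, and in Scd1 25 and 39 against 100 and 66, lower in KO as in their coding regions.

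The 2 knockout libraries differed from each other by at least 1.5-fold in 5 of the 10 genes. Far2 stood 3.23-fold, Awat2 2.59-fold, Elovl3 2.12-fold and Scd1 1.63-fold higher in KO replicate 2 than in KO replicate 1, on the CPM scale. That is 4 of the 10 genes past 1.5-fold, against 4.62% of all transcripts. Fads2 went the other way, at 0.511 of the level of KO replicate 1, where 4.11% of transcripts were at least 1.5-fold lower. Elovl5 stood 1.45-fold higher, while Scd2 (1.09), Fasn (1.06), Sdr16c6 (1.06) and Dgat2 (0.957) hardly differed. Between the WT libraries none of the 10 was at least 1.5-fold higher in WT replicate 2, against 4.09% of transcripts, and Fads2, at 0.463 of WT replicate 1, was at least 1.5-fold lower, against 3.56%.

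Several sebaceous and wax genes outside the 10 showed the same order of the KO libraries, and most adipocyte markers the reverse order. Fa2h, which hydroxylates fatty acids, was 3.83-fold higher in KO replicate 2, the cytochrome P450 Cyp2g1 3.19-fold, the wax synthase Awat1 2.96-fold, the sterol acyltransferase Soat1 2.03-fold and the adipocyte and sebocyte regulator Pparg 2.01-fold. Over all transcripts tested 49.1% were higher in KO replicate 2, with a median ratio of 0.996, and of the 10 genes 8 were. Of the 8 tested sebocyte markers, all 8 were higher in KO replicate 2, with a median ratio of 1.31. Of 11 tested adipocyte markers, 1 was higher in KO replicate 2 and the median ratio was 0.719. The pathway lists were mixed. Of the tested genes, 8 of 10 in fatty acid supply were higher in KO replicate 2, and 7 of 18 in elongation and desaturation. It was 11 of 21 in acyl-CoA and glycerolipid synthesis, 5 of 9 in the wax and sterol ester list and 10 of 16 among the regulators. Of 13 fibroblast markers 10 were higher, with a median ratio of 1.03. Of 10 suprabasal markers 1 was higher, with a median of 0.863, and of 8 basal markers 2, with 0.905. Hair shaft markers stood furthest from 1 among the marker lists, with none of 4 tested higher in KO replicate 2, a median ratio of 0.427, and 0.147% of coding footprints in KO replicate 1 against 0.0537% in KO replicate 2; they are not plotted. Each is a description of 2 libraries with no test.

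**Figure D4:**
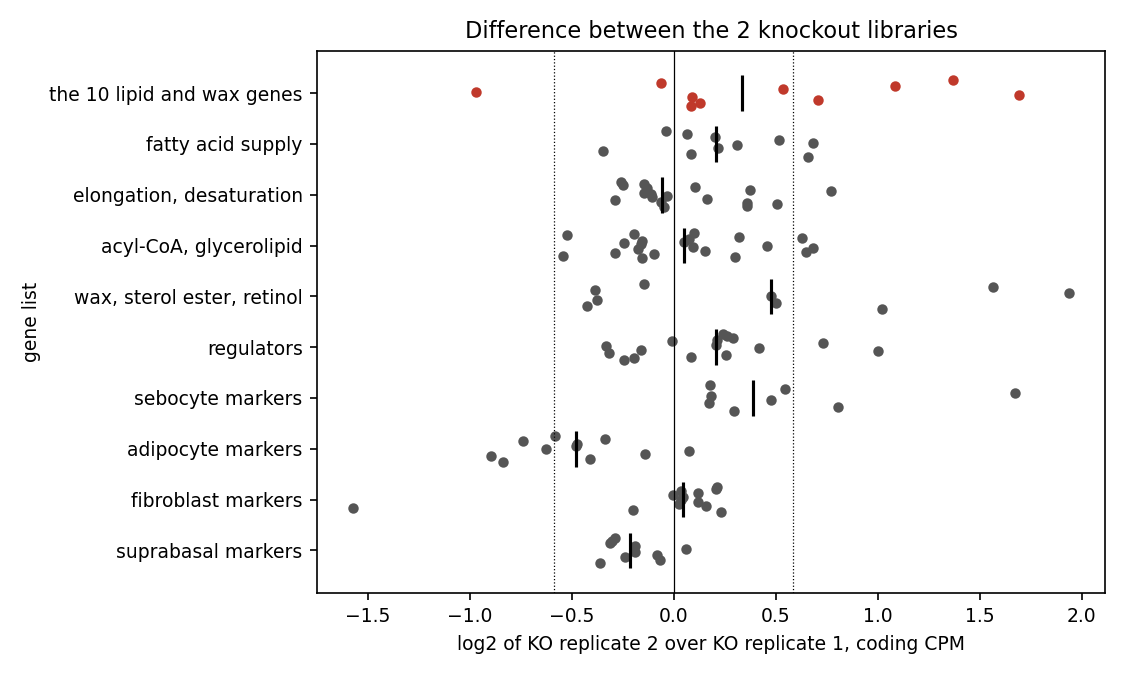
Log2 ratio of coding CPM in KO replicate 2 over KO replicate 1 for the tested genes of the 10, the 5 pathway lists and 4 of the 6 marker lists (points; red, the 10 genes), with the list median as a black line and 1.5-fold marked by dotted lines. Sebocyte markers lie right of 0 (median ratio 1.31) and nearly all adipocyte markers left of 0 (median ratio 0.719).

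Over all transcripts tested 19.1% were lower and 19.9% higher, the shares to set beside each list count below. Among the other genes of fatty acid supply, 4 of 10 tested fell and none rose, with a median log2 change of −0.35 against −0.02 over all transcripts. The falls were in Thrsp (−1.98), known to promote lipogenesis, the acetyl-CoA synthetases Acss2 (−1.43) and Acss1 (−1.03), and Me1 (−0.66), which supplies NADPH. Acly and Acaca, which make the cytosolic acetyl-CoA and the malonyl-CoA that Fasn uses, did not pass, like Fasn itself, at −0.30 and 0.05. Without WT replicate 2, Acss1 (−0.86) lost its call and Acly (−0.40) passed. DESeq2 did not call Acss1 (−1.03, adjusted p = 0.0857), and with library totals Acly passed (−0.47, adjusted p = 0.0172). Of the 18 tested genes of elongation and desaturation, 8 fell and 1 rose, with a median of −0.45. Scd3 (−2.08) and Scd4 (−1.80), copies related to Scd1, and the elongase Elovl6 (−1.02) were among the falls, and the elongase Elovl7 was the rise (1.38). How reads that match several Scd copies were counted is not known, so the separate values of Scd3 and Scd4 are uncertain too. Elovl1 (−0.07) and Elovl4 (−0.12), elongases of the very long chains of the skin barrier, did not pass.

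Of the 21 tested genes that activate fatty acids or build glycerolipids, 9 fell and 2 rose, with a median of −0.30. The falls were led by Acsbg1 (−1.63) and Acsl5 (−1.40), which attach coenzyme A to fatty acids, the acyltransferase Agpat2 (−1.17) and the fatty acid transporter Slc27a1 (−1.13). Agpat4 (0.02) and Acsl4 (0.39) did not pass, though Acsl4 (0.55) passed without KO replicate 1. The rises were in the acyltransferases Agpat3 (0.96) and Agpat5 (0.74), which were named after their values were seen. In the list of wax, sterol ester, ether lipid and retinol enzymes 4 of 9 fell and 2 rose, with a median of −0.14. The falls were in Fa2h (−2.32), Awat1 (−1.53), Soat1 (−0.92) and Gnpat (−0.53), of ether lipid synthesis, while the retinol dehydrogenases Dhrs9 (1.89) and Sdr16c5 (0.92) rose; Gnpat and Sdr16c5 were named after their values were seen. Far1 (−0.14), the relative of Far2 that is active in most tissues, and Agps (0.16) did not pass. Fa2h, Awat1 and Soat1 stood at −1.65, −0.94 and −0.50 without KO replicate 1 and at −3.58, −2.51 and −1.52 without KO replicate 2, and Soat1 (−0.86) lost its call without WT replicate 2. DESeq2 did not call Awat1 (−1.51, adjusted p = 0.121) or Soat1 (−0.91, adjusted p = 0.173), and neither passed with unlisted counts set to 0 (adjusted p = 0.0537 and 0.0833).

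Regulators of sebocytes and lipid synthesis split evenly, with 4 of 16 tested genes lower and 4 higher and a median of 0.10. Over all transcripts tested 19.1% were lower and 19.9% higher. Pparg (−1.17), the nuclear receptor that drives sebocyte and adipocyte differentiation, fell, but it lost its call without WT replicate 1 (−0.96) and with unlisted counts set to 0 (adjusted p = 0.0515). Rxra (−0.72), the partner of Pparg, and Srebf1 (−0.51), the transcription factor of fatty acid synthesis genes, fell too. Prdm1 (1.60), known from differentiating keratinocytes, and Gata6 (1.31), known from the sebaceous duct and the upper hair follicle, rose with Ppard (1.14) and Cebpb (1.11). Rxra, Srebf1, Ppard, Cebpb and Ppara were named after their values were seen. Srebf2 (0.22) and Lrig1 (0.11) did not pass. Ppara was listed in both WT libraries, at 82 and 49 footprints, and in neither KO library, where an unlisted count can reach 13, so it was at least 4.37-fold lower in KO.

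Sebocyte markers went both ways, with 5 of 8 tested lower and 3 higher and a median of −1.13. Cyp2g1 had 36 and 109 coding footprints in the KO libraries and 2656 and 2289 in the WT libraries, a log2 change of −4.91 that stood at −4.29 without KO replicate 1 and −5.96 without KO replicate 2. The other falls were in the lactate dehydrogenase Ldhb (−1.42), the glutathione transferase Mgst1 (−1.41) and the lipid droplet proteins Plin2 (−1.38) and Cidea (−0.89). Krt79, a keratin of the sebaceous duct and infundibulum, rose by 2.25 (7267 ± 648 against 1523 ± 217 CPM), and Apoc1 (0.67) rose too. Mc5r, the melanocortin receptor of sebocytes, was listed in WT alone, at 31 and 22 footprints, and was at least 2.32-fold lower in KO. The summed share of the list was higher in KO, at 0.665% to 0.788%, than in WT, at 0.280% to 0.310%; Krt79 alone had 31124 and 33513 of its footprints in KO. Of 11 tested adipocyte markers 9 fell, led by Adipoq (−1.86), Plin4 (−1.66), Cfd (−1.47) and Retn (−1.34), while Lpl (−0.17) and Lipe (0.12) did not pass. Retn (−0.91) lost its call without WT replicate 1, and Lpl passed with library totals (−0.33). Mgst1, Plin2, Cidea, Apoc1 and Mc5r were named after their values were seen.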

How the data were processed

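The authors deposited raw counts of footprints per transcript region (5′ UTR, coding, 3′ UTR) for 4 ribosome profiling libraries, using mm9 annotations, per the file headers. CASAVA 1.8, Bowtie2 2.2.6 and TopHat2 2.0.10 are listed in the submitters' processing notes without roles, and how reads were assigned among copies of a gene family is not stated there. The headers describe tables of 28 to 34 nt and of 20 to 22 nt footprints, but both files are identical, so the length class is unknown. A count is listed only above a coding density of 0.01 per nt. The 11019 transcripts listed in all 4 libraries were filtered to at least 10 counts in at least 2 libraries (10953), scaled with TMM and tested with edgeR 4.0.16 (quasi-likelihood, Benjamini-Hochberg over all transcripts, threshold 0.05) in R 4.3.3; TMM factors were 0.928 to 1.09. CPM values use these factors, and coding length is that in the table. For the 5′ UTR results the test was the genotype-by-region interaction term, with a factor for the library, TMM within each region and the same filter in each region. Both tests were run on simulated counts first.

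The genes, 5 pathway lists and 6 marker lists (161 symbols, 141 of them in the table) were chosen with earlier results of these data known. Named are Pelo, the 10 genes and, per list, up to 4 genes past the threshold with the largest change and up to 2 abundant genes that did not pass; others are marked as named after their values were seen. Some list genes are included in the counts of their lists but are not reported here by name. The basal, fibroblast, suprabasal and hair shaft lists are described in the report by shares, ratios and counts, not gene by gene: 2 rose and 3 fell of 8 basal, 0 and 8 of 13 fibroblast, 8 and 0 of 10 suprabasal, and 4 and 0 of 4 tested hair shaft genes. Alternatives were DESeq2 1.42.0, other scalings and filters, leaving out each library and a replicate block.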

Additional observations from a re-analysis of the deposited data

How the results depend on the processing

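Low counts in the 5′ UTR limit the results for that region: 6 of the 10 genes had too few there to test. The cause of the low counts was not tested. Of 100 alternative values of coding change for the 10 genes, 93 kept direction and side of the threshold, 6 gained a call and 1 changed sign; for the ratio of the 4 testable genes it was 28 of 32, with 2 gained and 2 lost. Between 5 and 6 of the 10 genes were called lower under each alternative. Counts of called transcripts were 4277 for coding counts, 2669 with DESeq2, and 3279 to 3845 when 1 library was left out. For the ratio, 27 were called, 494 with coding factors in both regions, and 12 (without KO replicate 1) to 54 (without WT replicate 1) when 1 library was left out. The genes of the 10 with a higher ratio numbered 2, 4 with coding factors and 2 without any 1 library.

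In coding counts over all transcripts tested, replicate numbers showed no pairing: deviations of same-numbered libraries correlated at −0.00506. The 5′ UTR counts and the ratio were not examined for pairing. With the replicate number as a block, 4337 transcripts were called for coding counts, with Fads2 passing at 0.75 (adjusted p = 0.0374), and 0 for the ratio (255 at an unadjusted p under 0.05), so 0 of the 10 genes, with Scd2 at 2.25 (adjusted p = 0.115) and Sdr16c6 at 1.77 (adjusted p = 0.218).

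Sign changes were all in genes that did not pass. With library totals Acaca was at −0.13, Agpat4 at −0.15, Agps at −0.0072, Lrig1 at −0.059, Lipe at −0.053 and Trp63 at −0.066. When 1 library was left out, Dgat2 ran from −0.48 to 0.0555, Acaca from −0.12 to 0.23, Elovl1 from −0.30 to 0.20, Elovl4 from −0.32 to 0.055, Agpat4 from −0.12 to 0.19, Far1 from −0.39 to 0.086, Lipe from −0.22 to 0.40 and Sbsn from −0.0098 to 0.36. The cause was not tested.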
